A study of Mus musculus with 38 samples.

Results

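The cytosolic ribosome is built from ribosomal RNA and a set of ribosomal proteins, the Rps proteins of the small subunit, which reads the mRNA, and the Rpl proteins of the large subunit, which joins the amino acids. Their genes are among the most strongly expressed in any tissue, and their mRNAs usually start with a run of pyrimidines, the terminal oligopyrimidine tract, through which the mTOR pathway adjusts their translation. Most are autosomal, but several lie on the X chromosome, so their dosage can be followed in animals that differ in the number of X chromosomes.

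The genes described here are those with a platform symbol of the form Rps or Rpl and a number, with an optional letter and digit, or Rplp and a digit. All 56 symbols of this form had a probe detected above background (detection p below 0.01) on at least 8 arrays, and each was represented by its probe with the highest mean. They made up 56 of the 9455 features tested. 22 encode small subunit proteins and 34 encode large subunit proteins, including the stalk genes Rplp0 and Rplp1. Rpl10, Rpl36a, Rpl39 and Rps4x are X-linked. Rpl22l1, Rps27l, Rpl3l and Rpl7l1 carry symbols that mark them as paralogues of other ribosomal protein genes.

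Total RNA of the striatum, the input nucleus of the basal ganglia, was measured on Illumina bead arrays in MF1 mice aged 152 days. There were 9 XXY males, 8 XX males, 9 XX females and 12 XY males, of which 11 XY males had a signal and entered the tests. The sample codes of all 3 male groups contain the name Sry, the testis-determining gene, and those of XX females do not. The series title calls the XXY animals a model of Klinefelter syndrome and asks about feminized gene expression, and the labels do not say how the Sry gene or the extra X chromosome was introduced. The labels call the animals biological replicates.

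Sample codes end in a, in b or in both letters, with no stated meaning, and array brightness differed with this code letter. The 90th percentile of the raw signal lay between 1266 and 2209 on the 14 letter b arrays, between 721 and 1526 in the 9 animals with both letters, and between 632 and 937 on the 14 letter a arrays, so the arrays with both letters overlapped both others. All XX males carried letter a and all XX females letter b, so for this pair letter and group cannot be told apart except through the other groups. The labels also name a batch, 1 or 2. Among XXY and XY males, none of labelled batch 1 carried letter b alone and none of labelled batch 2 letter a alone. Fits within labelled batch 1 for XX females, and within labelled batch 2 for XX males, extend the fitted letter difference beyond those males. Between 10089 and 12392 probes were detected per array. The striatal markers Drd1, Drd2, Tac1, Ppp1r1b, Rgs9 and Pde10a were detected on all 37 arrays. Detection of Xist, which silences all but 1 X chromosome, followed the labels: it was found in 9 of 9 XXY males, 8 of 8 XX males, 9 of 9 XX females and 0 of 12 XY males.

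The promoters of 9 of the genes, picked by how their values followed the family or by X linkage, are printed as examples of its transcription starts. Whether these sequences are related to how the genes varied was not tested. RefSeq annotation of GRCm38.p6 gave promoter windows for 48 of the 56 genes, all but Rpl3, Rpl21, Rpl23a, Rpl29, Rpl30, Rplp1, Rps14 and Rps20 (59 windows in all), and each printed stretch runs from 40 bases before the annotated start to 20 bases after it, 5′ to 3′ on the gene's strand. Capitals mark the longest run of C and T between 15 bases before and 20 bases after the start, the first where runs tie, as in Rpl22. For a gene with several windows the one with the longest run is printed. The first 4 belong to the genes whose values followed the rest of the family most closely, described further on, and the next to Rpl22, which varied against it.
Rpl12: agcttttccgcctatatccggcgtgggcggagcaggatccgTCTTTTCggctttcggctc
Rpl13a: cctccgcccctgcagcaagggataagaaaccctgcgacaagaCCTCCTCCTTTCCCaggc
Rps10: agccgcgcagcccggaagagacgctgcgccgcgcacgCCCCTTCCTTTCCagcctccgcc
Rpl27a: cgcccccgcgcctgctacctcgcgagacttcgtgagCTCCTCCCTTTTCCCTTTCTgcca
Rpl22: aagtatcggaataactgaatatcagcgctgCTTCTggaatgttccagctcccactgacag
The last 4 belong to the X-linked members.
Rpl10: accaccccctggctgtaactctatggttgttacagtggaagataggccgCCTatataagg
Rpl36a: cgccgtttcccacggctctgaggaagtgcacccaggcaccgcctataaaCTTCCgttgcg
Rpl39: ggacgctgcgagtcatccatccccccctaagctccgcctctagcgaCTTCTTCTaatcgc
Rps4x: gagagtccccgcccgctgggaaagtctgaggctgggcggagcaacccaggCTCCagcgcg

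These stretches lie at chr2:32961672-32961731 on the plus strand (Rpl12), chr7:45128726-45128785 on the minus strand (Rpl13a), chr17:27635225-27635284 on the minus strand (Rps10), chr7:109519155-109519214 on the plus strand (Rpl27a) and chr4:152324396-152324455 on the plus strand (Rpl22). The X-linked ones lie at chrX:74270776-74270835 on the plus strand (Rpl10), chrX:134585614-134585673 on the plus strand (Rpl36a), chrX:37085203-37085262 on the minus strand (Rpl39) and chrX:102189372-102189431 on the minus strand (Rps4x). The run was 20 bases long in Rpl27a, 14 in Rpl13a, 13 in Rps10, 8 in Rpl39 and 7 in Rpl12. It was 5 bases in Rpl22 and Rpl36a, 4 in Rps4x and 3 in Rpl10. A run of at least 8 pyrimidines stood in 39.0% of the family's windows, against 13.7% of all 32851 windows in the table. The letters CCGGAAG, a sequence that ETS-family transcription factors can recognise, stood on either strand in 32.2% of the family's windows of 300 bases, against 8.86% of all windows. By gene, 22 of 48 had such a run and 18 of 48 had CCGGAAG in at least 1 window. The matching shares of all genes were not counted, and a gene with several windows has more chances of a match. A match is a description of the letters only, and the annotated start can differ from the one used in striatum.

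The family's mean log2 signal per animal showed how far it moved as a whole. It lay between 12.42 and 12.97 in XXY males (median 12.58), between 12.31 and 12.86 in XX males (median 12.56), between 12.47 and 12.94 in XX females (median 12.70) and between 12.37 and 12.87 in XY males (median 12.58). The 4 groups overlapped over most of their range. In a bulk tissue sample, fewer cells of a type and less RNA per cell cannot be told apart.

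**Figure D1:**
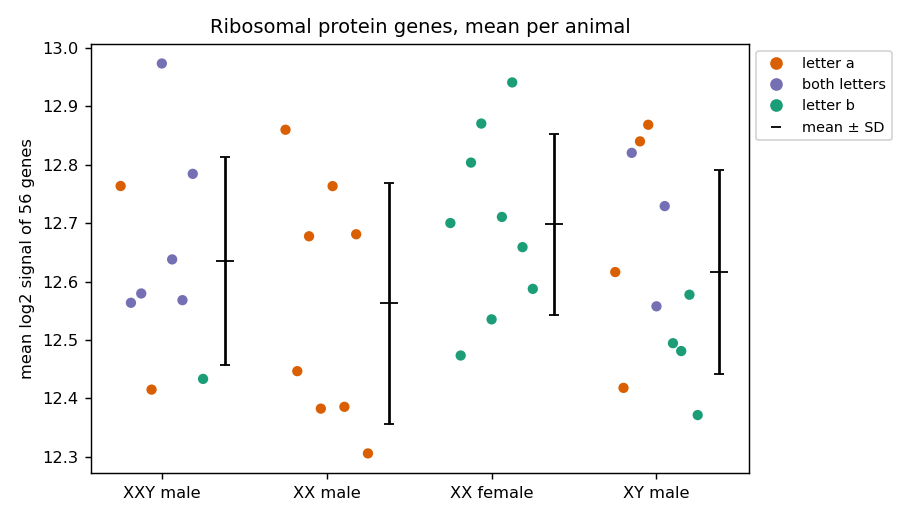
Mean log2 signal over the 56 ribosomal protein genes for each animal, by group, coloured by code letter, with the group mean ± SD at the right of each group. The highest animal, an XXY male with both letters, reached 12.97 and the lowest, an XX male with letter a, 12.31.

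XXY males were first set against XY males, which differ from them by 1 X chromosome. No member of the family passed it: 0 of 56 had an adjusted p below 0.05 in limma with Benjamini-Hochberg adjustment, against 0.0635% of all features, and 0 of 56 had an unadjusted p below 0.05, against 1.3% of all features. The median fitted difference of the family was 0.01 on the log2 scale, and that of all features was -0.001. With each array centred on its median instead of quantile normalization, the family's median was 0.03, with 39 genes above 0. Differences were above 0 for 35 of the 56 genes, against 49.5% of all features. For 53 of the 56 genes the 95% interval of the difference stayed within 1.5-fold in either direction, against 85.9% of all features. The intervals of Rps2, Rps3a1 and Rpl22l1 reached further.

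Rpl22l1, which encodes a protein that can take the place of Rpl22 in the large subunit, had the highest difference of this comparison, 0.40 (SE 0.37). Its values were 4.98, 7.06 and 9.24 (lowest, median, highest) in XXY males and 5.72, 6.69 and 7.77 in XY males. The XY range lay inside the XXY range. Rpl3l, a paralogue of Rpl3 known mainly from muscle, had the lowest difference, -0.25 (SE 0.15). Its values were 5.65, 5.82 and 6.60 in XXY males and 5.56, 6.10 and 7.08 in XY males, again with a wide overlap. The Rpl3l probe was dim, with a mean log2 signal of 6.07 over all arrays. Rps2, a small subunit protein, followed at -0.23 (SE 0.24), with 12.42, 13.05 and 14.23 in XXY males and 12.18, 13.70 and 14.33 in XY males. The XXY range of Rps2 lay inside its XY range.

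The comparison of XX males with XY males sets males with different sex chromosomes side by side. Again 0 of 56 genes passed in limma after Benjamini-Hochberg adjustment, against 0.0529% of all features. The smallest adjusted p was 0.636. At an unadjusted p below 0.05 there was 1 gene, Rpl3l, against 6.5% of all features, and the 1 was lower, as were 3.15% of all features. The family's median difference was -0.09, and all features had a median of 0.01. With median centring the family's median was -0.21, with 4 of 56 genes above 0. Differences were below 0 for 46 of the 56 genes, against 49.2% of all features. Intervals of 41 genes stayed within 1.5-fold, against 55.8%. With array weights 17 of the 56 passed, all 17 lower. Of all 9455 features 2477 passed with array weights, in either direction. How many of these were lower is not given here. By subunit, 3 of 22 small subunit genes and 7 of 34 large subunit genes had differences above 0.

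Rpl3l, whose probe was dim with a mean log2 signal of 6.07, was detected in 7 of 8 XX males and 11 of 11 XY males. It had 5.39, 6.17 and 6.67 in XX males and 5.56, 6.10 and 7.08 in XY males. The groups overlapped and the unadjusted medians were close, while the fit, which takes out the letter, gave -0.43 (SE 0.19, adjusted p 0.636 in limma). Within labelled batch 1 the difference was -0.51 and within labelled batch 2 it was 0.14. The labelled batch 2 value rests on extending the fitted letter difference, since no XY male of that batch carried letter a alone. Rpl7l1, a paralogue of Rpl7 that works in the nucleolus, had -0.42 (SE 0.22), with 8.86, 9.28 and 9.68 in XX males and 8.95, 9.24 and 10.11 in XY males. Rpl34, a large subunit protein, had -0.26 (SE 0.13), with 13.12, 13.58 and 13.78 in XX males and 13.41, 13.67 and 14.07 in XY males. Rps16 of the small subunit also had -0.26 (SE 0.15). The highest differences were 0.16 (SE 0.13) for Rpl23 and 0.22 (SE 0.19) for Rpl4, both of the large subunit.

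XX females and XY males differ in labelled sex, in sex chromosomes and in the Sry of the sample code, and all XX females carried letter b. Their comparison gave 0 of 56 genes in limma after Benjamini-Hochberg adjustment, against 0.0529% of all features, and a smallest adjusted p of 0.890. At an unadjusted p below 0.05 there was 1 gene, Rps3a1, against 5.27% of all features, and the 1 was higher, as were 2.25% of all features. The median difference was 0.11, against -0.01 for all features, and 0.12 with median centring. Differences were above 0 for 49 of 56 genes, against 48.4% of all features. Intervals of 42 genes stayed within 1.5-fold, against 57% of all features. The family's median was -0.24 within labelled batch 1, with 12 genes above 0, and 0.21 within labelled batch 2, with 50 genes above 0. The labelled batch 1 value rests on extending the fitted letter difference, since no XY male of that batch carried letter b alone. The change of sign therefore does not show that the batches differ.

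Rps3a1 encodes a small subunit protein. Its values were 9.24, 9.86 and 10.78 in XX females and 9.09, 9.74 and 10.66 in XY males. The ranges were nearly the same, and the fit gave 0.67 (SE 0.30, adjusted p 0.890 in limma). The difference within labelled batch 1, again with the letter difference extended, was 0.28 (SE 0.77) and within labelled batch 2 it was 0.86 (SE 0.27). By moderated t, Rpl29, Rpl35a and Rps3 followed with 0.30 (SE 0.15), 0.35 (SE 0.19) and 0.35 (SE 0.23). Rpl38, a large subunit protein that in mouse embryos is needed for translation of some Hox mRNAs, had the lowest moderated t, with a difference of -0.07 (SE 0.07). Its values were 14.47, 14.84 and 14.86 in XX females and 14.78, 14.90 and 14.96 in XY males.

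The 3 remaining comparisons reuse the animals of the first 3. XXY males against XX males gave 0 of 56 genes in limma after Benjamini-Hochberg adjustment, against 0.0212% of all features, and 0 at an unadjusted p below 0.05, against 6.24%. The smallest adjusted p was 0.689. The family's median was 0.11 (0.22 with median centring, with 53 genes above 0), against -0.004 for all features, with 47 of 56 genes above 0, against 49.5% of all features, and 42 intervals within 1.5-fold, against 56.1%. Within labelled batch 1 the median was -0.05 and within labelled batch 2 it was 0.36. The labelled batch 2 value rests on extending the fitted letter difference, since no XXY male of that batch carried letter a alone. Rpl22l1 had the highest difference, 0.71 (SE 0.47), with 4.98, 7.06 and 9.24 in XXY males and 5.08, 5.90 and 7.58 in XX males. It was detected in 8 of 9 XXY males and 5 of 8 XX males, and the groups overlapped.

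XXY males against XX females gave 0 of 56 genes in limma after Benjamini-Hochberg adjustment, against 0.0423% of all features, and 0 at an unadjusted p below 0.05, against 4.09%. The smallest adjusted p was 0.924. The median was -0.11 (-0.09 with median centring), against 0.01 for all features, with 45 of 56 genes below 0, against 47.6% of all features, and 39 intervals within 1.5-fold, against 53.7%. Within labelled batch 1 the median was 0.16 and within labelled batch 2 it was -0.24. The labelled batch 1 value rests on extending the fitted letter difference, since no XXY male of that batch carried letter b alone. Rpl29 had the lowest moderated t, with a difference of -0.30 (SE 0.16). Its values were 10.03, 10.70 and 10.94 in XXY males and 10.04, 10.51 and 10.95 in XX females, so the ranges were nearly identical.

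XX males against XX females compares the labelled sexes on the same sex chromosomes, and here the letter separates the groups completely. There were 0 of 56 genes in limma after Benjamini-Hochberg adjustment, against 0.0106% of all features, with a smallest adjusted p of 0.561. At an unadjusted p below 0.05 there was 1 gene, Rps3a1, with -0.93 (SE 0.43), against 7.62% of all features in either direction and 3.04% lower. Within labelled batch 1 that difference was -0.24 (SE 0.84), and within labelled batch 2 it was -2.37 (SE 0.63). Rps3a1 had 8.97, 9.61 and 10.37 in XX males and 9.24, 9.86 and 10.78 in XX females, which overlapped widely. The family's median was -0.26 (-0.35 with median centring), against 0.02 for all features, with 48 of 56 genes below 0, against 48.4% of all features. Within labelled batch 1 the median was 0.18, with 46 genes above 0, and within labelled batch 2 it was -0.57, with 5 genes above 0. These within-batch values, also those of Rps3a1, rest on extending the fitted letter difference, so they do not show how far the batches differ. Intervals were wide: 24 of 56 genes stayed within 1.5-fold in either direction, against 22.9% of all features, and 15 intervals reached 2-fold. Without the letter term 15 of the 56 genes passed, 2 higher and 13 lower, and 2544 of all 9455 features passed in either direction. With array weights 16 of the 56 passed, all 16 lower, and 1964 of all features passed in either direction. How many of these features were lower is not given here.

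Of the 8 marker lists of cell types and neighbouring tissue, 0 genes passed in limma after Benjamini-Hochberg adjustment in any of these 6 comparisons, but several lists had median differences larger than the ribosomal protein family's. The 7 choroid plexus genes had a median difference of -0.84 for XXY minus XY males and -0.93 for XX females minus XY males, with 0 of 7 above 0 in each, -1.13 for XXY minus XX males (0 of 7), and 0.95 for XX males minus XX females (7 of 7). The 7 thalamus and septum genes had -0.49 for XXY minus XY males (1 of 7), -1.01 for XX females minus XY males (0 of 7), -0.65 for XXY minus XX males (1 of 7), 0.55 for XXY males minus XX females (7 of 7) and 1.23 for XX males minus XX females (6 of 7). Both lists mark tissue next to the striatum, and for both the fitted medians of XXY males and XX females lay below that of XY males.

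The 5 endothelial genes had 0.68 for XX males minus XY males (5 of 5), -0.49 for XXY minus XX males (0 of 5) and 0.86 for XX males minus XX females (5 of 5). The 3 blood genes had -0.36 for XX males minus XY males (0 of 3), 0.63 for XX females minus XY males (3 of 3), 0.58 for XXY minus XX males (3 of 3), -0.41 for XXY males minus XX females (0 of 3) and -0.99 for XX males minus XX females (0 of 3). Differences of the other 4 lists (projection neurons, oligodendrocytes, astrocytes and microglia) had medians between -0.31 and 0.31. The mean log2 level of the choroid plexus genes lay between 7.15 and 9.89 in XXY males, 7.31 and 10.00 in XX males, 7.23 and 10.05 in XX females, and 7.17 and 10.24 in XY males. That of the thalamus and septum genes lay between 8.10 and 10.56 in XXY males, 8.36 and 10.16 in XX males, 8.37 and 10.99 in XX females, and 8.50 and 11.04 in XY males. The endothelial genes' mean lay between 7.35 and 8.78 in XXY males, 7.64 and 8.94 in XX males, 7.01 and 9.02 in XX females, and 6.97 and 8.70 in XY males. All these ranges overlapped, and the part of these markers in the family's group medians was not tested.

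**Figure D2:**
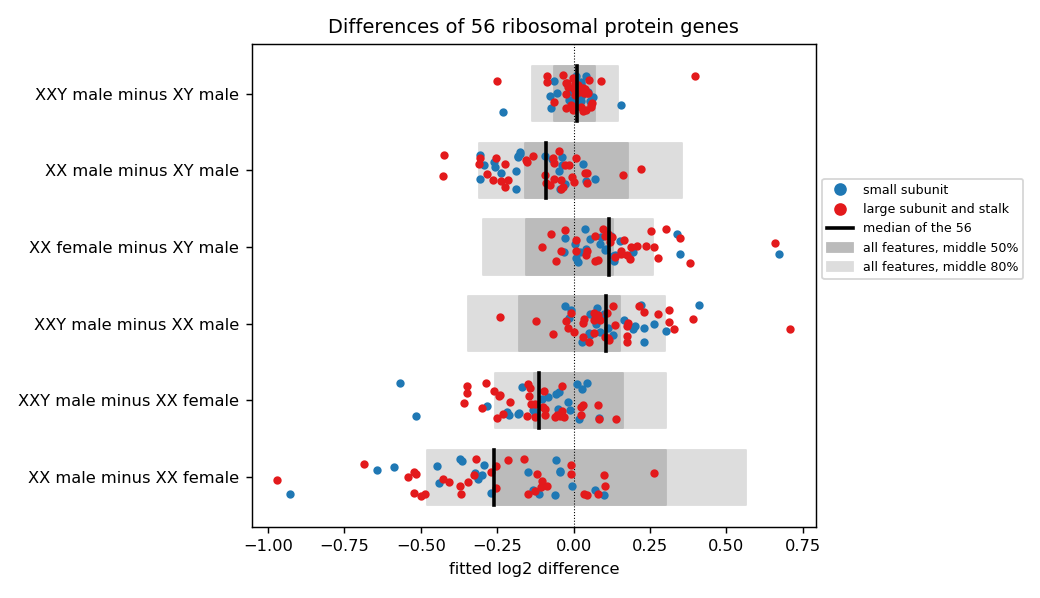
Fitted log2 differences of the 56 genes in the 6 comparisons, each point 1 gene, blue for the small subunit and red for the large subunit and stalk, with a black line at the median of the 56 and darker and lighter grey bands for the interquartile and interdecile range of all features. The medians run from -0.26 for XX males minus XX females to 0.11 for XX females minus XY males.

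2 genes had groups that did not overlap, Rpl28 and Rps21, both lower in XX males than in XX females. Among all features 4.73% had such groups in that comparison, and in the other 5 comparisons 0 of 56 genes did. Of all features 0.0212% did so for XXY minus XY males, 0.074% for XX males minus XY males, 0.106% for XX females minus XY males, 0.18% for XXY minus XX males and 0.137% for XXY males minus XX females. Rps21, a small subunit protein, had 13.54, 13.85 and 14.11 in XX males and 14.28, 14.48 and 14.64 in XX females. Rpl28, of the large subunit, had 13.20, 13.38 and 13.55 in XX males and 13.57, 13.83 and 13.99 in XX females. The fit, which takes the letter out, gave -0.06 (SE 0.15) for Rps21 and -0.12 (SE 0.13) for Rpl28.

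X-linked members could follow the number of X chromosomes directly. Eif2s3x, an X-linked gene known to escape X inactivation in mice, shows what such a change looked like here. It had 9.64, 10.00 and 10.16 in XXY males, 9.89, 10.03 and 10.09 in XX males, 10.02, 10.13 and 10.42 in XX females, and 9.01, 9.46 and 9.72 in XY males. Every animal of the 3 groups with more than 1 X chromosome was above the XY median. In limma with Benjamini-Hochberg adjustment its differences from XY males were 0.58 (adjusted p 5.1e-05) in XXY males, 0.64 (adjusted p 0.00064) in XX males and 0.70 (adjusted p 0.00018) in XX females.

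The 4 X-linked ribosomal protein genes did not pass in any of these comparisons, and their intervals against XY males lay around 0. Rpl10, which is added late to the large subunit next to its catalytic centre, had 13.31, 14.01 and 14.28 in XXY males, 13.92, 14.02 and 14.20 in XX males, 13.46, 13.85 and 14.08 in XX females, and 13.30, 13.98 and 14.38 in XY males. The XY range enclosed all other animals. The XXY minus XY difference was 0.02 (95% interval -0.17 to 0.21), and 6 of 9 XXY males lay above the XY median.

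Rpl36a, a large subunit protein at the tRNA exit site, had 11.35, 12.29 and 12.85 in XXY males, 11.23, 11.57 and 12.26 in XX males, 12.25, 12.65 and 12.96 in XX females, and 11.24, 12.22 and 12.58 in XY males. XX females were high, with 9 of 9 above the XY median, and XX males were low, with 1 of 8 above it, though all overlapped with XY males. The letters split in the same way, with 12.19 to 12.96 in letter b animals and 11.23 to 12.26 in letter a animals. The fitted differences from XY males were 0.09 (95% interval -0.22 to 0.40) in XXY males, -0.22 (-0.62 to 0.17) in XX males and 0.19 (-0.22 to 0.60) in XX females.

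Rpl39, a small protein at the wall of the peptide exit tunnel, had 13.56, 13.75 and 13.95 in XXY males, 13.40, 13.69 and 13.89 in XX males, 13.55, 13.92 and 14.09 in XX females, and 13.20, 13.73 and 14.00 in XY males. Its XXY minus XY difference was 0.06 (95% interval -0.14 to 0.25). Rps4x, a small subunit protein whose human counterpart has a copy on the Y chromosome, had 13.81, 13.91 and 14.06 in XXY males, 13.78, 13.97 and 14.11 in XX males, 13.85, 13.95 and 14.03 in XX females, and 13.58, 13.93 and 14.10 in XY males. Its XXY minus XY difference was 0.00 (95% interval -0.12 to 0.13). For both genes the groups overlapped throughout.

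**Figure D3:**
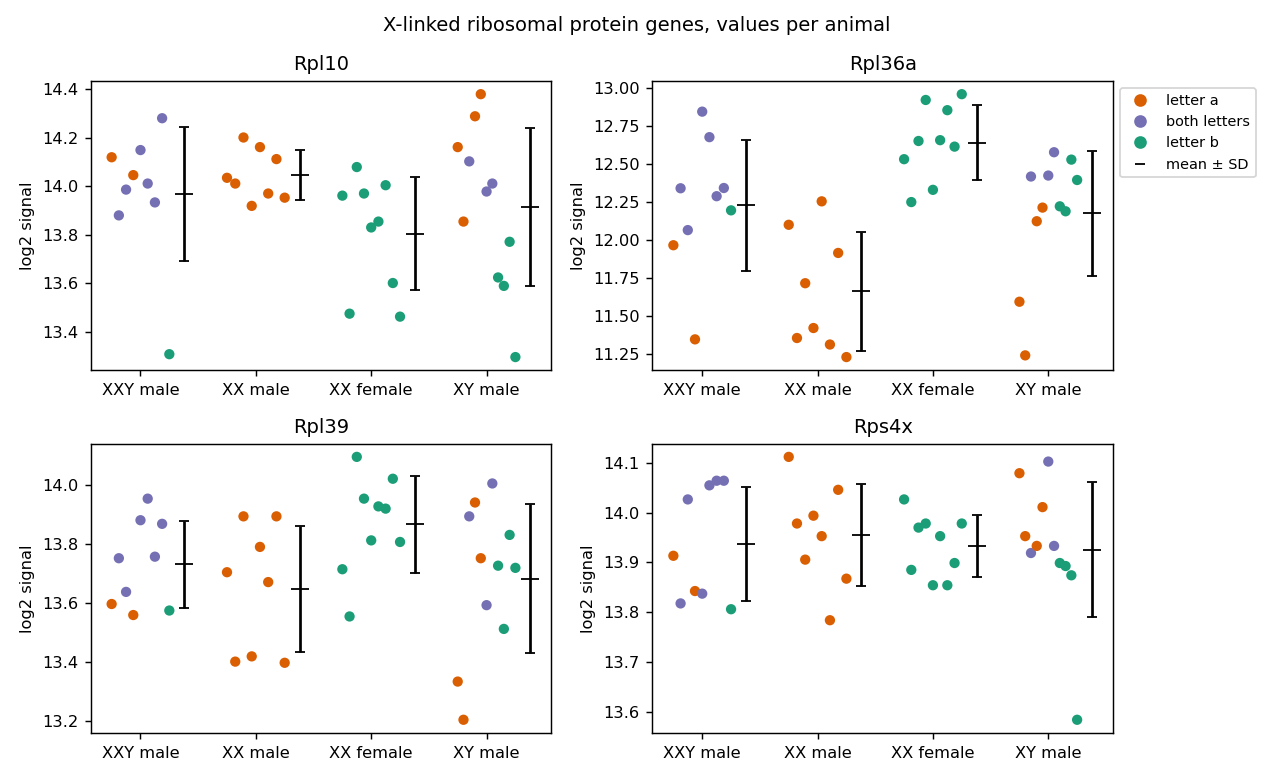
Log2 signal of the 4 X-linked ribosomal protein genes in every animal, by group and coloured by code letter, with the mean ± SD at the right of each group. Rpl36a runs from 12.19 to 12.96 in letter b animals, which include all XX females, and from 11.23 to 12.26 in letter a animals, which include all XX males.

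The stalk genes behaved differently in spread. The stalk is the flexible arm of the large subunit that recruits translation factors, with Rplp0 at its base and Rplp1 at its tip. Rplp0 had 7.40, 7.67 and 9.16 in XXY males, 7.55, 7.97 and 8.87 in XX males, 7.17, 7.73 and 9.00 in XX females, and 6.75, 7.65 and 9.01 in XY males. Every group spanned more than 1 log2 unit and none stood apart. The Rplp0 probe was dim for this family, with a mean log2 signal of 7.93, and dimmer probes had larger SDs, as described below. Rplp1 gave the highest signal of all probes on 23 of 37 arrays, and quantile normalization set it to the same value, 15.13, on each of them. Rplp1 had 14.90, 15.13 and 15.13 in XXY males, 14.997, 15.13 and 15.13 in XX males, 14.96, 15.03 and 15.13 in XX females, and 14.997, 15.13 and 15.13 in XY males, so these values carry little information on its change. With arrays centred on their medians instead, its XXY minus XY difference was 0.06 (SE 0.09). Rpl41, which encodes the smallest ribosomal protein, was the top probe on 4 arrays.

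The family's members differed in spread more generally. The SD within groups, with batch and letter taken out, had a median of 0.22 on the log2 scale over the 56 genes, against 0.32 over all features. It ran from 0.05 in Rplp1 to 0.86 in Rpl22l1. Across the 56 genes, which are not independent, brighter probes had smaller SDs (Spearman correlation -0.84). With median centring the family's median SD was 0.35 and that of all features 0.34, and the correlation with level was -0.59. After Rpl22l1 the widest were Rps27l (0.58), Rpl13a (0.55) and Rps2 (0.55).

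More members passed for the code letter than for any group comparison. In limma with Benjamini-Hochberg adjustment 7 of 56 genes passed for letter b minus letter a, 3 higher and 4 lower, against 13.2% of all features (7% higher and 6.16% lower), so the share of the family was near that of the array as a whole. The labelled batch gave 0 of 56, with 0 at an unadjusted p below 0.05, against 0% and 1.65% of all features.

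Rps21 rose by 0.58 (SE 0.13, limma adjusted p 0.0025), with 14.28, 14.47 and 14.66 in letter b animals and 13.54, 13.92 and 14.11 in letter a animals. These did not overlap. Rps24, a small subunit protein mutated in some patients with Diamond-Blackfan anaemia, rose by 0.40 (SE 0.13, limma adjusted p 0.045), with 14.27, 14.51 and 14.80 in letter b animals and 13.54, 14.10 and 14.58 in letter a animals. Rpl28 rose by 0.33 (SE 0.11, limma adjusted p 0.033), with 13.57, 13.76 and 13.99 in letter b animals and 13.20, 13.41 and 13.55 in letter a animals. The letters of Rpl28 did not overlap, those of Rps24 did. The share of all features whose letters did not overlap was not counted, so this does not set Rps21 and Rpl28 apart from other genes.

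Rpl30, a large subunit protein, fell by 0.66 (SE 0.16, limma adjusted p 0.0052), with 10.71, 10.99 and 11.56 in letter b animals and 11.16, 11.57 and 11.87 in letter a animals. Rpl10 fell by 0.56 (SE 0.15, limma adjusted p 0.012), with 13.30, 13.70 and 14.08 in letter b animals and 13.85, 14.08 and 14.38 in letter a animals. Rpl29 fell by 0.70 (SE 0.19, limma adjusted p 0.012) and Rps15a by 0.69 (SE 0.24, limma adjusted p 0.048). In all 4 the letters overlapped. With median centring Rps21 and Rpl28 still passed, whereas Rps24, Rpl30, Rpl10, Rpl29 and Rps15a kept their direction and did not pass. With the mean of its probes in place of the brightest, Rps24 was -0.083. Of the 56 genes, 0 passed in limma within either labelled batch alone, where fewer animals enter, and 0 with the authors' log2 values, used here without the XX males. Of all features 15 and 0 passed in batches 1 and 2, and 0 with the authors' values.

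**Figure D4:**
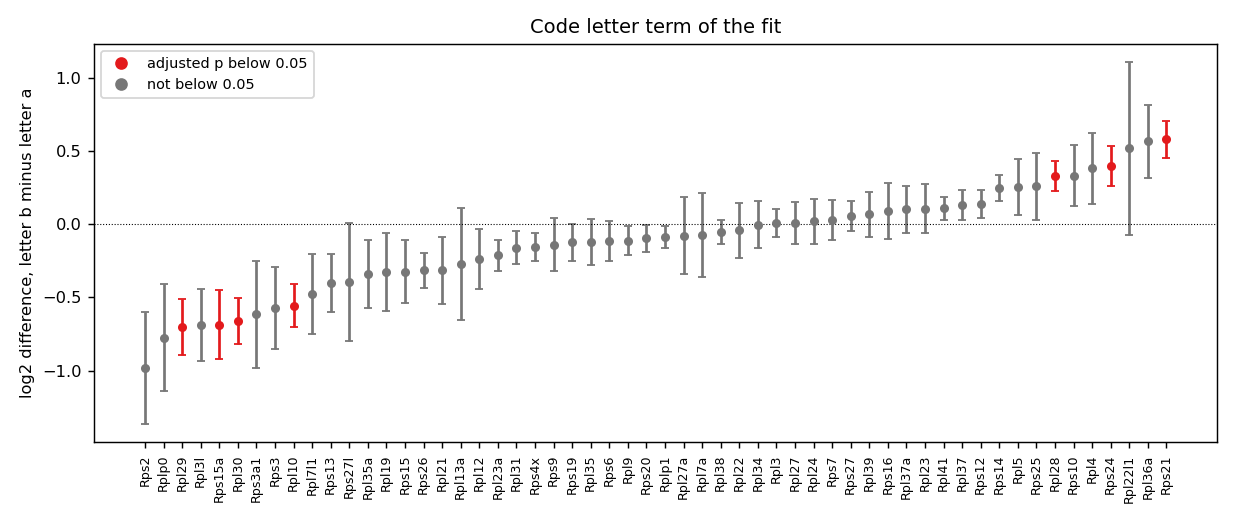
Fitted log2 difference, letter b minus letter a, for each of the 56 genes in order of size, with bars of ± 1 SE; red points have an adjusted p below 0.05. Rps21, Rps24 and Rpl28 are the red points above 0, and Rpl29, Rps15a, Rpl30 and Rpl10 those below.

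Beneath the groups the family varied together from animal to animal. With group, batch and letter terms removed, each gene was correlated over 37 animals with the mean of the other 55. 34 of the 56 had a Pearson r above 0.7, against 14.6% of the 9399 other features, and the median r was 0.75. By subunit it was 12 of 22 small and 22 of 34 large. With median centring 48 of the 56 had such an r, against 17.5% of other features. The points share the arrays, so these values describe co-variation of libraries and carry no p. 34 genes passed 0.7 within the 20 animals of labelled batch 1 and 26 within the 17 of labelled batch 2.

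The closest followers were Rpl12 (r 0.95), a protein at the base of the stalk, Rpl13a (0.95), Rps10 (0.95) and Rpl27a (0.94). Rpl13a is a large subunit protein known in human cells for a second role in silencing some mRNAs during inflammation. It ranged widely, with 10.46, 10.94 and 12.70 in XXY males, 10.28, 10.92 and 11.73 in XX males, 10.70, 11.28 and 12.25 in XX females, and 10.53, 10.77 and 11.92 in XY males. With the fitted terms removed, the family's mean was highest in XXY male 5 (0.32 above the fit), XX male 1 (0.28) and XX female 7 (0.27).

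Rpl22 ran the other way, with an r of -0.63 and, with median centring, -0.42. Rpl37 had -0.53 and Rpl3 had -0.40, but with median centring both turned positive, to 0.74 and 0.81. Rpl22 had 9.19, 10.36 and 10.60 in XXY males, 9.99, 10.38 and 10.52 in XX males, 9.85, 10.18 and 10.37 in XX females, and 9.91, 10.30 and 10.55 in XY males. Its lowest animals in XXY males and XX females were XXY male 5 and XX female 7, which stood high in most of the family. Within letters the r of Rpl22 was -0.68 in a, -0.85 in animals with both and -0.50 in b.

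**Figure D5:**
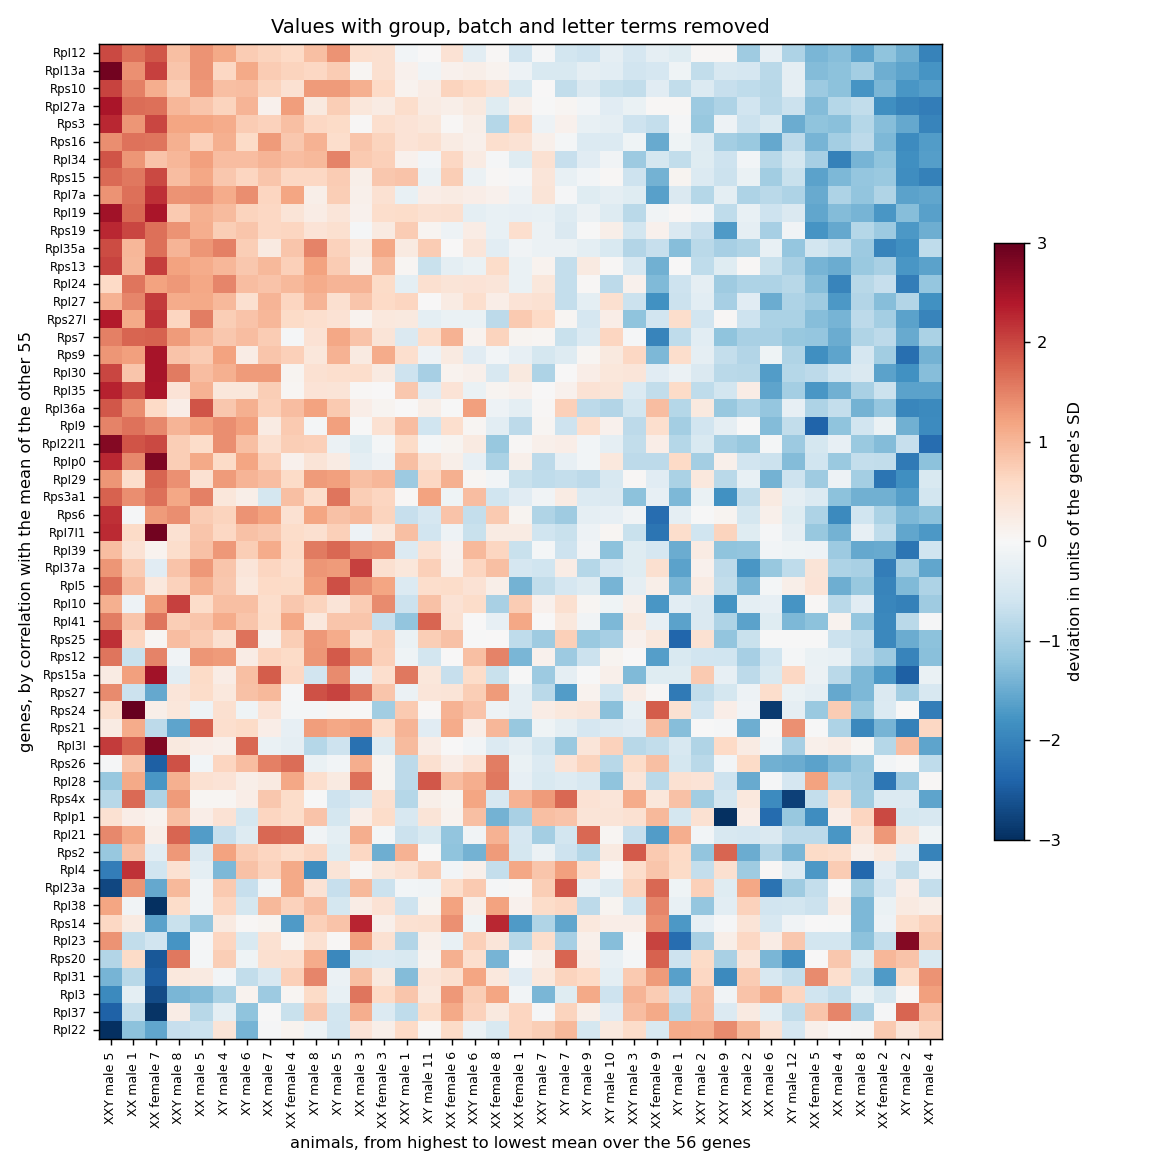
Values of the 56 genes with group, batch and letter terms removed, in units of each gene's SD, with genes ordered from the highest to the lowest correlation with the other 55 and animals ordered by the family's mean. Most rows run from red at the left to blue at the right, and Rpl22, Rpl37 and Rpl3 at the bottom run the opposite way in these quantile-normalized values; Rpl37 and Rpl3 turn round with median centring.

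Paralogue pairs were compared over the same 37 animals, 3 pairs in all. The permutation p-values shuffle animals and take no account of the co-variation described above. They therefore do not measure a tie particular to a pair. With the rest of the family Rpl22l1 had an r of 0.84 and Rpl22 one of -0.63. Whether the 2 genes are tied beyond this shared variation was not tested. Rpl22l1 and Rpl22 had a Pearson r of -0.68 (permutation p 1e-05, adjusted 3e-05, the smallest raw p that 100000 permutations can give) and a Spearman rho of -0.52 (permutation p 0.00088, adjusted 0.0026). Without the 2 animals farthest from the median of Rpl22l1, r was -0.56. It was -0.76 within labelled batch 1 and -0.45 within labelled batch 2. With median centring r was -0.36 and rho -0.11. Rpl3l and Rpl3 had r -0.53 (permutation p 0.00067, adjusted 0.001) and rho -0.37 (permutation p 0.023, adjusted 0.035), r -0.30 without 2 animals, and r 0.19 with median centring, where the sign turned. Within labelled batches 1 and 2 that r was -0.55 in each. The Rpl3l probe was dim, with a mean log2 signal of 6.07. Rps27l and Rps27 had r 0.21 (permutation p 0.21) and rho 0.25 (permutation p 0.14), and r 0.75 with median centring. Its r was 0.45 within labelled batch 1 and -0.19 within labelled batch 2.

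The family's mean followed the main axis of the arrays. Component 1 of all features, with 45.3% of the variance, had an r of 0.89 with it (rho 0.90, r 0.89 without 2 animals). The number of detected probes had an r of -0.55 (rho -0.49, r -0.43 without 2 animals), and the 90th percentile of raw signal had -0.08. Whether RNA quality or tissue make-up has a part in this axis was not tested.

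Named genes outside the family that were most like its mean were Mrps28 and Mrpl33, proteins of the mitochondrial ribosome, Slirp, which binds mitochondrial RNAs, Fmc1, an assembly factor of the mitochondrial ATP synthase, Bola2, Nme3, Fam162a, Gm1673, Cbr1 and Med31. Their r over 37 animals lay between 0.94 and 0.95. The most opposite were Ubap2l, Hk2, Kif1b, Hdlbp, Wasl, Dctn1, Gak, Nipbl, Cds2 and Psap, between -0.93 and -0.90. Hk2 is a hexokinase, Kif1b a kinesin motor and Dctn1 a dynactin subunit. With median centring all 10 opposite genes kept a negative r.

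Lists of related genes were set against the same mean. The mean of 66 mitochondrial ribosomal protein genes had an r of 0.93 with the family's mean, 73 oxidative phosphorylation genes 0.92, 12 RNA polymerase I genes 0.91 and 37 ribosome biogenesis genes 0.76. The 20 genes of mTOR signalling had -0.60, and -0.09 with median centring. The 18 other mRNAs known for a terminal oligopyrimidine tract had -0.09, and 0.41 with median centring. Of ribosomal protein genes that the naming rule leaves out, Rpsa and Fau together had 0.58 and Rpl36al had 0.71.

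In the 6 group comparisons 0 genes of these lists passed in limma with Benjamini-Hochberg adjustment. For mitochondrial ribosomal proteins the median difference was -0.02 for XXY minus XY males, with 25 of 66 genes above 0. It was -0.23 for XX males minus XY males, with 2 of 66 above 0, and 0.15 for XX females minus XY males, with 61 of 66 above 0. For ribosome biogenesis the medians were 0.01, -0.04 and 0.05 in the same order, over 37 genes.

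Markers of cell types moved along the same axis between animals. The mean of 3 blood genes had an r of 0.75 with the family's mean, 5 endothelial genes -0.73, 9 astrocyte genes -0.72, 14 striatal projection neuron genes -0.59, 8 oligodendrocyte genes -0.35 (0.02 with median centring) and 11 microglial genes 0.34. Choroid plexus (7 genes) had 0.12 and thalamus and septum (7 genes) -0.14. The mean log2 level of the 14 projection neuron genes lay between 10.50 and 11.67 in XXY males, 10.66 and 11.59 in XX males, 10.41 and 11.91 in XX females, and 10.42 and 11.58 in XY males. That of the 3 blood genes lay between 8.55 and 10.18 in XXY males, 8.19 and 9.86 in XX males, 8.70 and 9.73 in XX females, and 7.82 and 9.89 in XY males. Their part in the family's variation was not tested.

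A second probe was available for part of the family. Over 37 animals it followed the first with an r of 0.96 for Rps3, 0.75 for Rps9, 0.56 for Rpl29, 0.53 for Rps19 and 0.33 for Rps24. For Rpl23 the 2 further probes had 0.28 and -0.09, for Rpl38 it was -0.10 and for Rpl31 -0.13. In the group comparisons no first probe of these genes had an unadjusted p below 0.05 in limma, while further probes of 3 genes did. For XX females minus XY males the second probe gave 0.59 for Rps9 (first probe 0.13) and 0.41 for Rpl31 (0.11). For Rps9 it gave -0.80 for XX males minus XX females (-0.31) and -0.59 for XXY males minus XX females (-0.18). In the latter comparison a further Rpl23 probe gave -0.27, against 0.14 for the first. None of these passed after adjustment. Ribosomal protein genes have many processed copies in the genome, and a probe does not tell a transcript of the gene from that of a near-identical copy.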

How the data were processed

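Per the file headers, the authors deposited for each of 25697 probes a bead signal intensity on a linear scale, a detection p-value, and a bead standard error and bead number (signal columns of the same table), not normalized between arrays. They also deposited log2 values. How these were scaled is not given in the sources used here, and the submitters' processing notes name limma. In that table the 8 XX male columns had Spearman correlations of 0.062 to 0.073 with their own arrays, against 0.987 to 1.00 in other groups, so it served only as an alternative without XX males. The signal of XY male 3 was not analysed here. Columns with both letters held half-integer bead numbers (10 of 10, against 0 of 28 others) and were taken as 1 animal each. Bead standard errors were not used. 0 columns of per-sample values lacked a sample.

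Signals were background-corrected and quantile-normalized with neqc (offset 16) in limma 3.58.1 under R 4.3.3. Probes with detection p below 0.01 on at least 8 arrays were kept (12339), the brightest per gene, giving 8444 named genes and 1011 unnamed probes. limma's lmFit and eBayes were fitted to the 4 groups with labelled batch and letter share (0, 0.5 or 1) as covariates, p-values adjusted by Benjamini-Hochberg over 9455 features and called below 0.05. The script was tested on simulated data. Differences are on a log2 scale after the offset, which understates those of dim probes. Bead arrays give no count depth, and the number of arrays limits precision.

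The family and the gene lists were chosen with earlier results of these data known. 35 members are named by rule: those passing any test, the 4 highest and lowest moderated t per comparison, X-linked, stalk and paralogue members, and the 4 with the highest and lowest SD. Rpl12, Rps10, Rpl27a and Rpl37 were named after their co-variation was seen, and Rps27, Rps9 and Rps19 as partners or for a second probe. The 10 other genes most like the family's mean follow the same rule, and the 10 most opposite were added. The alternatives are other normalization, offset, filters, probes, covariates, array weights and subsets of animals. Same-numbered animals were not paired: between 1 and 5 of the 7 to 9 pairs per comparison had residual correlations over 0.1.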

Additional observations from a re-analysis of the deposited data

Results flagged for a closer look

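In 12 of 108 groups of 8 or 9 animals (11.1%), the highest or lowest animal stood apart by Dixon's criterion at the 95% level. For independent groups chance alone gives about 1 in 20. The 108 reuse the same animals and many of their genes co-vary, so 11.1% cannot be set against that share. The groups of 11 XY males were not tested in this way.

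XXY male 5 and XX female 7 had the highest values on component 1 of all features, 68.7 and 66.2. The next highest was XY male 6 with 28.8. Their values below therefore come from arrays that differed across all features, not only in the genes named. XX female 7 stood apart in 4 genes. Its Rpl3l was 6.86, against 5.67 to 5.99 in the other XX females, and its Rplp0 was 9.00, against 7.17 to 7.98. Its Rpl22 was 9.85, against 10.12 to 10.37, and its Rpl38 was 14.47, against 14.77 to 14.86. XX female 9 had the highest Rpl23 of its group, 14.45, against 13.85 to 14.12.

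XXY male 5 had Rpl13a at 12.70, against 10.46 to 11.43 in the other XXY males, and Rpl22 at 9.19, against 10.11 to 10.60. It also had the lowest number of detected probes of all arrays, 10089. XXY male 9, the single XXY male with letter b alone, had Rpl10 at 13.31, against 13.88 to 14.28, and Rplp1 at 14.90, against 15.13 in all the others. XXY male 4 had Rps24 at 13.81, against 14.24 to 14.48.

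XX male 3 had Rpl3l at 5.39, against 6.08 to 6.67 in the other XX males. XX male 6 had Rplp1 at 14.997, against 15.13 in all the others. Both Rplp1 values stand against animals that share the top value of the quantile normalization, so any lower value stands apart.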

How the results depend on the processing

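The count of ribosomal protein genes that passed stayed at 0 for XXY minus XY males in all 17 alternatives, for XX females minus XY males in 15, for XXY minus XX males in 14 and for XXY males minus XX females in 15. The smallest limma adjusted p in these alternatives was 0.452, 0.0588, 0.0505 and 0.122 in the same order. The counts for XX females minus XY males and for XXY minus XX males thus stayed at 0 by a narrow margin in some alternatives. For XX males minus XY males the count was 17 with array weights and 0 in the other 13 alternatives. For XX males minus XX females it was 15 without the letter term and 16 with array weights. The matching counts over all 9455 features were 2477, 2544 and 1964. Family medians moved by more than 1 SD of the family's mean within groups (0.178) in these cases: -0.36 for XX males minus XY males within labelled batch 2, -0.24 for XX females minus XY males within labelled batch 1, 0.36 for XXY minus XX males within labelled batch 2, and 0.16 for XXY males minus XX females within labelled batch 1. For XX males minus XX females the median was 0.18 within labelled batch 1, -0.57 within labelled batch 2 and 0.0087 with the replicate number as a block. All these within-batch values extend the fitted letter difference beyond the letters of the XXY and XY males of that batch. The block gave 0 passing genes in every group comparison. Its samples share only a number. For letter b minus letter a the count was 17 without the labelled batch term, 19 with array weights, and 0 with the authors' log2 values, with the replicate block, and within labelled batch 1 or labelled batch 2. Of all 9455 features 3098 passed without the labelled batch term, 3378 with array weights and 223 with the replicate block. Single genes reversed in 2 cases: Rpl30 for XX males minus XX females was 0.39 without the letter term (limma adjusted p 0.021), and Rps24 for letter b minus letter a was -0.083 with the mean of its probes. The cause was not tested. Sign changes of values that passed under neither setting were not counted as reversals. A fit of XX males and XX females alone was not run, since the letter then equals the group. Animals with both letters only, for XXY minus XY males, were a choice made after seeing the data. Brightness limits both ends: the top probes share normalized values, and 3 members were not detected on every array.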

Other observations

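Genes around the ribosome were also compared between the code letters. In limma with Benjamini-Hochberg adjustment 13.2% of all features passed for letter b minus letter a, 7% higher and 6.16% lower. Of 66 mitochondrial ribosomal protein genes 7 passed, all 7 lower in letter b arrays. The largest of these by size was Mrpl20, which fell by 1.40 (SE 0.35, adjusted p 0.0079). Of 37 ribosome biogenesis genes 4 passed: Nop2, a ribosomal RNA methyltransferase, rose by 0.77, Ltv1 by 0.57 and Ebna1bp2 by 0.55, while Fbl, the fibrillarin methyltransferase of the nucleolus, fell by 0.53. Of 20 mTOR pathway genes 4 passed: Deptor rose by 1.31 and Sesn1 by 0.55, while Lamtor4 fell by 0.39 and Akt1s1 by 0.41.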
